A study of Mus musculus with 4 samples.

Results

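Hox genes encode homeodomain transcription factors that give cells an address along the head-to-tail axis of the body. A gene was counted as Hox where its symbol was Hoxa, Hoxb, Hoxc or Hoxd followed by a number, and 39 of the 21499 genes in the files met this rule. Cluster A held 11 of them, cluster B 10, cluster C 9 and cluster D 9. RNA came from bulk lung tissue around metastases of B16-F10, a mouse melanoma line that lodges in the lung after injection into a tail vein. The samples are 2 wild-type mice and 2 mice without lactoferrin (Lf-/-, the product of Ltf, a protein of neutrophils and secretions that binds iron), with 1 library per mouse. All are described as C57B/L6 males that were 8 weeks old when they received 200000 tumour cells and were killed 3 weeks later. Each genotype had 10 mice in the experiment. No mouse without tumour cells enters a comparison, so every value below belongs to a tumour-bearing lung.

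Mammalian Hox genes lie in 4 clusters, each on its own chromosome, and genes of the same number in different clusters are paralogues that descend from one ancestral gene. Low numbers sit at the 3′ end of a cluster and are used towards the head, while high numbers sit at the 5′ end and are used in the tail region, limbs and genital tract. The lung buds from the foregut, and its mesenchyme keeps a regional Hox pattern after birth. Hoxa5 is the member best known there, since mice that lack it have malformed airways and often die at birth from respiratory failure. Retinoic acid switches on 3′ Hox genes in the embryo, Polycomb proteins keep unused Hox genes silent, Trithorax proteins keep used ones active, and the Pbx, Meis and Pknox proteins (the TALE family) bind DNA together with Hox proteins.

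The homeobox, the stretch of 180 bases that encodes the 60-residue homeodomain, shows how alike the paralogues are. It is coding exon sequence and was located in the annotated transcripts of all 39 genes on the GRCm38 build of the mouse genome. The line below shows it for Hoxa5, the most abundant Hox gene of this lung. Capitals mark bases 142 to 159, which encode residues 48 to 53 of the recognition helix that lies in the major groove of DNA.
Hoxa5, chr6:52202632-52202811, minus strand: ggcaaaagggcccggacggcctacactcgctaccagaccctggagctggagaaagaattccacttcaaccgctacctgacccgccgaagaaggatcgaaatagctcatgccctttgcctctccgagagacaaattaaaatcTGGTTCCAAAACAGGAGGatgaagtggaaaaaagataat

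Over the 42 pairs of genes of the same number in different clusters, the median identity of homeoboxes was 80.6% in bases and 93.3% in residues. Over the 699 pairs of different number it was 60.6% and 61.7%. The share of 50-base stretches of a Hox transcript that also occurred in an annotated transcript of another gene, on either strand, was 0% for Hoxa5 and Hoxb7, 0.437% for Hoxb4, 0.839% for Hoxb6 and 1.83% for Hoxb5. It was larger for the other genes used in this lung, at 12.7% for Hoxa2, 13.3% for Hoxa4, 18.7% for Hoxa7, 24.3% for Hoxa3, 25.9% for Hoxb2 and 51.4% for Hoxb3. Most of this sharing was with genes that overlap the Hox gene on the chromosome. Counting only genes elsewhere, the share was 0% for Hoxa2, Hoxa4, Hoxa7, Hoxb2, Hoxb3 and Hoxb5. It was 0.151% for Hoxa3 and unchanged for Hoxb4 and Hoxb6.

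The unit is FPKM, read fragments scaled by transcript length and by the mapped fragments of the library, a level per transcript length, so levels of different genes can be set side by side. The number of genes at an FPKM of 1 or more was 12231 to 12590 per library. Read totals are unknown, but the steps between low values put the relative depth of wild-type mouse 2, knockout mouse 1 and knockout mouse 2 at 1.12, 0.966 and 1.22 of wild-type mouse 1. Ltf was at 79.2 and 7.32 in the wild-type libraries and at 0.104 and 0.533 in the knockout libraries. The Y-linked genes Ddx3y, Eif2s3y, Kdm5d and Uty lay between 0 and 0.0426 in the libraries labelled wild type and between 1.91 and 24.2 in those labelled knockout, which goes against the label of males throughout. For this reason genotype and the presence of Y-linked RNA cannot be told apart below. The lung label fits surfactant gene Sftpc (17185 to 21592) and Nkx2-1, the lung epithelial regulator (70.7 to 97.0), whereas the club cell gene Scgb1a1 was listed at 0 in knockout mouse 2 and at 60454 to 72936 elsewhere. The summed FPKM of 10 melanocyte genes was 13.6 and 125 in wild-type mice 1 and 2 and 13.2 and 6.41 in knockout mice 1 and 2, although the labels exclude tumour from the tissue. Wild-type mouse 1 stood apart with fat genes summing to 251, against 14.8 to 18.1 in the other libraries.

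The Hox genes in use in this lung were the anterior and middle genes of clusters A and B. Of the 39 genes, 11 reached an FPKM of 1 in all 4 libraries, 5 in cluster A (Hoxa2, Hoxa3, Hoxa4, Hoxa5 and Hoxa7) and 6 in cluster B (Hoxb2 to Hoxb7). A further 18 genes were above 0 but never at 1, and 9 were listed at 0 throughout. No member of cluster C or D reached 1 in any library. Groups 2 to 7 of clusters A and B together made up 96.6%, 97.1%, 97.7% and 98.3% of all Hox FPKM in wild-type mice 1 and 2 and knockout mice 1 and 2. Group 5 alone made up 46.4% to 51.7%.

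**Figure D1:**
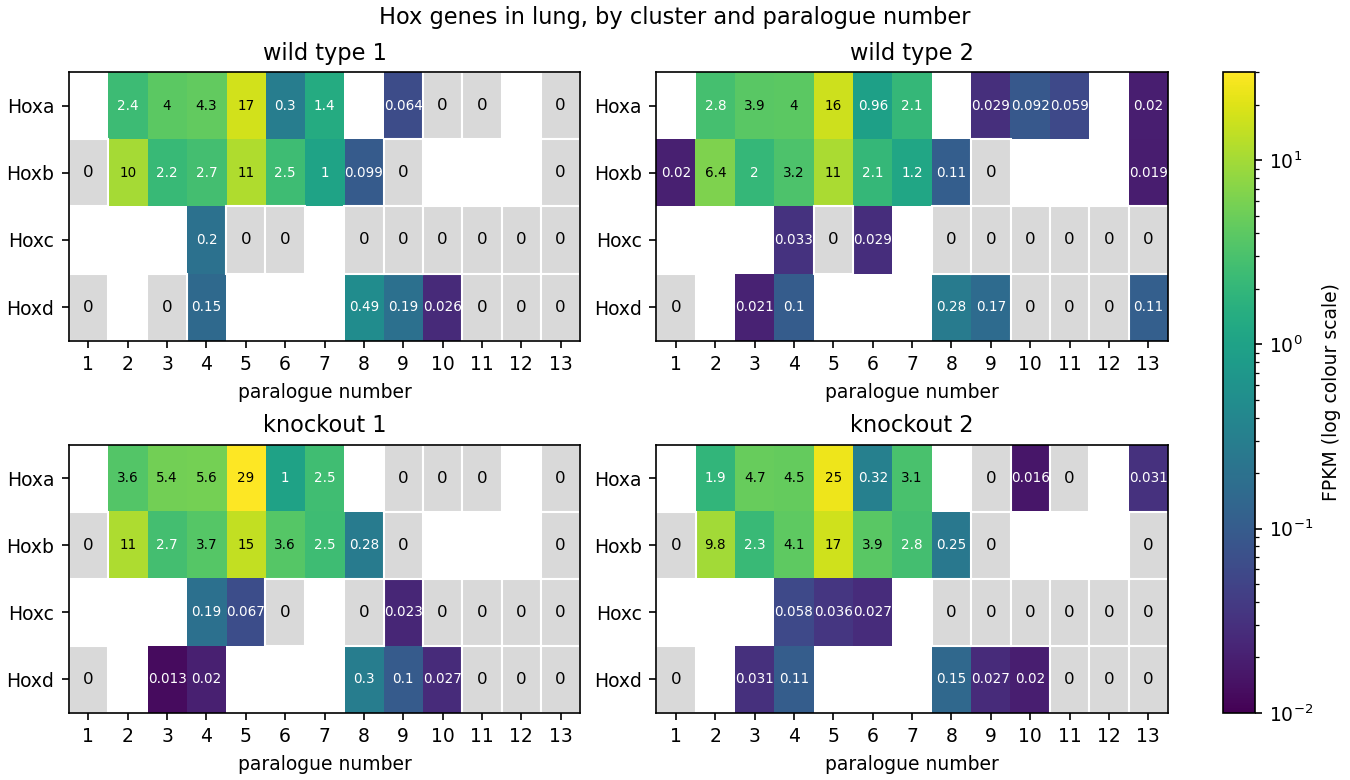
FPKM of Hox genes in each of the 4 libraries (1 panel a library), with clusters as rows and paralogue numbers 1 to 13 as columns; colour follows FPKM on a log scale, grey marks a listed 0, white cells hold no value, and printed values are rounded. The levels of Hox genes in use sit in groups 2 to 7 of clusters A and B, and clusters C and D stay below 1.

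In cluster A, on the minus strand of chromosome 6, the level peaked at group 5 in every library. Hoxa2, which patterns the second branchial arch, was at 2.44 and 2.82 in wild type and at 3.55 and 1.92 in the knockout, and the knockout libraries enclosed the wild-type ones. Hoxa3, which is needed for thymus and parathyroid, was at 3.97 and 3.90 in wild type and at 5.39 and 4.71 in the knockout. Both knockout libraries lay above both wild-type libraries for Hoxa3. Hoxa4, a neighbour that takes part in vertebral patterning, was at 4.34 and 3.98 in wild type and at 5.58 and 4.47 in the knockout, where the genotypes were separated by the narrow step from 4.34 to 4.47. Hoxa5 was the most abundant Hox gene, at 17.5 and 16.4 in wild type and at 29.4 and 24.8 in the knockout, and again the genotypes did not overlap.

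Beyond group 5 the cluster A level dropped steeply. Hoxa6 was at 0.296 and 0.960 in wild type and at 0.996 and 0.322 in the knockout, so 1 library of each genotype was low and the other 1 high. Hoxa7 was back above 1, at 1.36 and 2.08 in wild type and at 2.54 and 3.06 in the knockout, without overlap. Hoxa9 and Hoxa10, which are active in blood progenitors and, for Hoxa10, in the uterus, reached at most 0.0640 and 0.0916. Hoxa11 and Hoxa13, genes of the distal limb and urogenital tract, reached at most 0.0592 and 0.0315.

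Cluster B spans 174 kb (chr11:96194316-96368256) and showed 2 high members, Hoxb2 and Hoxb5. Hoxb1, a hindbrain gene, was at 0.0200 in wild-type mouse 2 and listed at 0 in the other libraries, although its neighbour Hoxb2 was among the highest Hox genes. Hoxb2, which takes part in hindbrain and facial nerve patterning, was at 10.3 and 6.39 in wild type and at 11.03 and 9.83 in the knockout. The low library was wild-type mouse 2, and the genotypes overlapped. Hoxb3 was at 2.19 and 2.04 in wild type and at 2.71 and 2.26 in the knockout. Hoxb4, best known for expanding blood stem cells when supplied in excess, was at 2.74 and 3.20 in wild type and at 3.67 and 4.10 in the knockout. Both genes had both knockout libraries above both wild-type libraries, by a small gap for Hoxb3.

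Hoxb5, a gene of airway branching and of the enteric nervous system, was at 11.4 and 10.8 in wild type and at 14.5 and 16.6 in the knockout. Hoxb6 was at 2.53 and 2.07 in wild type and at 3.58 and 3.92 in the knockout. Hoxb7 was at 1.03 and 1.15 in wild type and at 2.47 and 2.75 in the knockout. In all 3 genes the knockout libraries lay above the wild-type ones, and as a ratio the separation was widest for Hoxb7 among the Hox genes in use. Hoxb8 was low, at 0.0985 and 0.109 in wild type and at 0.282 and 0.245 in the knockout, without overlap, and was not tested. Hoxb9 was listed at 0 in all 4 libraries, and Hoxb13, a prostate and hindgut gene, was at 0.0189 in wild-type mouse 2 and otherwise at 0.

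**Figure D2:**
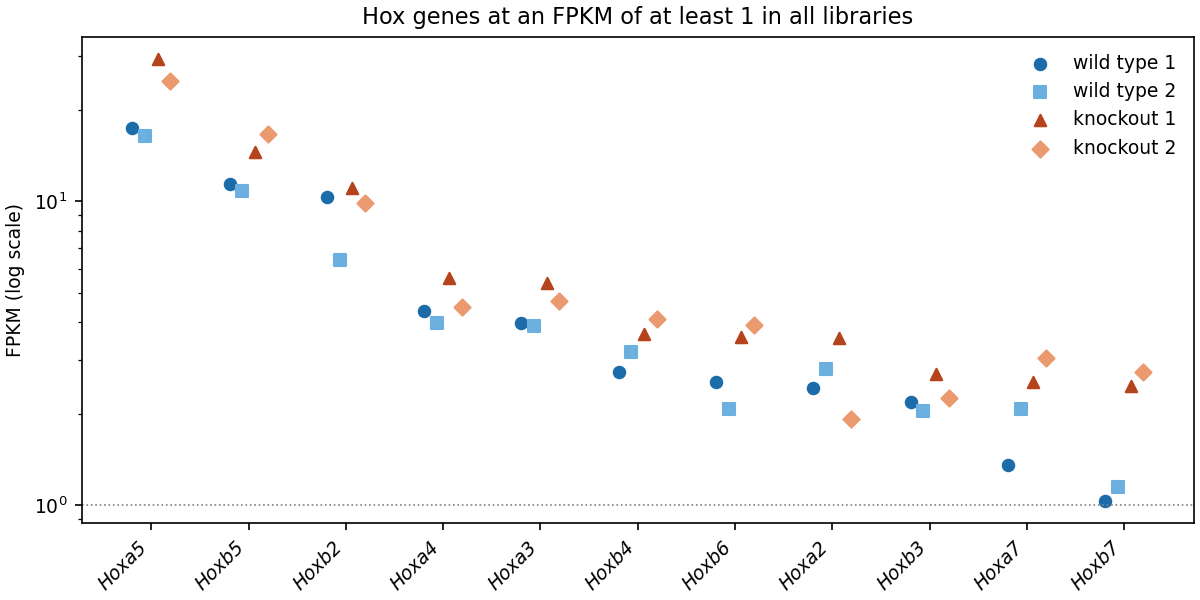
FPKM on a log axis in each of the 4 libraries for the Hox genes at 1 or more in all of them, ordered by mean level; each point is 1 mouse and the dotted line is at 1. Hoxa5 (16.4 to 29.4) and Hoxb5 (10.8 to 16.6) stand highest, followed by Hoxb2 (6.39 to 11.03).

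Ordered by mean level, the genes ran Hoxa5, Hoxb5, Hoxb2, Hoxa4, Hoxa3, Hoxb4, Hoxb6, Hoxa2, Hoxb3, Hoxa7 and Hoxb7. Each neighbouring pair in this order overlapped between libraries except Hoxb2 and Hoxa4, where the lowest Hoxb2 value (6.39) was above the highest Hoxa4 value (5.58). Within group 5 the cluster A member was the higher in every library, and the ratio of Hoxa5 to Hoxb5 was 1.53 and 1.51 in wild type, against 2.02 and 1.49 in the knockout. Group 2 went the other way, with Hoxa2 at 0.235 and 0.441 of Hoxb2 in wild type and at 0.322 and 0.195 in the knockout. Summed over all members, cluster A and cluster B were close to each other, with ratios of A to B between 1.00 and 1.27.

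Cluster C (chr15:102921103-103036852) and cluster D (chr2:74668310-74765142) were near 0 in all libraries. In cluster C the highest value was 0.200, for Hoxc4 in wild-type mouse 1, and Hoxc8, Hoxc10, Hoxc11, Hoxc12 and Hoxc13 were listed at 0 throughout. In cluster D, Hoxd8 was highest, at 0.490 and 0.281 in wild type and at 0.298 and 0.148 in the knockout. Hoxd9 was at 0.191 and 0.167 in wild type and at 0.0999 and 0.0268 in the knockout, the opposite order to the active genes of clusters A and B. The cluster D sum was 0.860 and 0.686 in wild type, against 0.457 and 0.331 in the knockout. Hoxd1, Hoxd11 and Hoxd12 were listed at 0 in all libraries, and values this low were not tested.

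Genes of groups 10 to 13, the posterior end of the code, number 12. Above 0 were 1 of them in wild-type mouse 1, 5 in wild-type mouse 2, 1 in knockout mouse 1 and 3 in knockout mouse 2. Their summed FPKM was 0.303 in wild-type mouse 2, and it was 0.0256, 0.0267 and 0.0673 in the other libraries. The highest single value was Hoxd13, a digit gene, at 0.114 in wild-type mouse 2, the library that also held the most melanocyte transcripts (Pmel at 30.8, against 0.186 to 1.26 elsewhere). Whether melanoma cells contribute to these posterior Hox values was not tested.

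Promoter sequence is shown for the most abundant member of clusters A, C and D, since the contrast between an active and 2 clusters near 0 is the main pattern. The letters are the 250 bases before the start of transcription in RefSeq on GRCm38.p6, and capitals mark TAAT or its reverse complement ATTA, the core that homeodomains recognise. RefSeq promoters were matched for 22 of the 39 genes, in 24 windows.
Hoxa5, chr6:52204588-52204837, minus strand: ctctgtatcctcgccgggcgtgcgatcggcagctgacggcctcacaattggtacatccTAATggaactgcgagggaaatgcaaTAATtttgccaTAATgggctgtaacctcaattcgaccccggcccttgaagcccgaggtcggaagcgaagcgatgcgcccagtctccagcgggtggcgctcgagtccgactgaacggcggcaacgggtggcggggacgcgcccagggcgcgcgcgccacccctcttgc
Hoxc4, chr15:103034145-103034394, plus strand: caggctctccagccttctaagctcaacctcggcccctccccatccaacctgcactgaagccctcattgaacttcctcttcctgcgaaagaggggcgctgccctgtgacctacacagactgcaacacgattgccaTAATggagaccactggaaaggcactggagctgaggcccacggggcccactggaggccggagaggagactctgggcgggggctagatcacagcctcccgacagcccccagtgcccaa
Hoxd8, chr2:74704365-74704614, plus strand: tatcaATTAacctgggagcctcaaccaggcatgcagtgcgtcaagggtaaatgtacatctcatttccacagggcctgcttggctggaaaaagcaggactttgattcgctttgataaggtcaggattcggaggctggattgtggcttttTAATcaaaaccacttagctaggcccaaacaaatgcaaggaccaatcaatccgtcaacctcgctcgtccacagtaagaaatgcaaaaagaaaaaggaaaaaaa

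The Hoxa5 window held 28 CpG pairs, the Hoxc4 window 8 and the Hoxd8 window 6. Over all windows matched, the median was 14 for the Hox genes in use, 12 for the other Hox genes and 6 for all genes, and Hoxa13, near 0 in this lung, held 35. TAAT on either strand occurred in 4 of the 5 windows of the Hox genes in use, in 14 of the 19 windows of the other Hox genes and in 54.9% of 32851 promoter windows of all genes. The median GC content was 58% in the first group, 59.2% in the second and 52.4% over all. The motif TGATNNAT, a composite for Hox and Pbx proteins, was in 1 of 5 and 3 of 19 windows and in 7.68% of all. Only 5 of the 11 genes in use have a window, so these counts cannot say whether letters alone separate them from the others. For Hoxa3, Hoxa7, Hoxd10 and Hoxd13 the bases after the RefSeq start were not found in a GENCODE transcript of the gene. A match is not evidence of binding.

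Lungs without lactoferrin gave higher mean values for every one of the 11 Hox genes in use, but none passed the test across all genes. The test was limma on log2(FPKM + 1) over the 12573 genes that reached an FPKM of 1 in 2 or more libraries, with Benjamini-Hochberg adjustment at 0.05. On that scale 48.8% of these 12573 genes had a higher mean in the knockout. Of all genes 0.0239% (3 genes) passed, and 0 of the 11 Hox genes did, with adjusted p from 0.789 to 0.998. At an unadjusted p under 0.05, limma had 4 Hox genes higher in the knockout (Hoxa5, Hoxb5, Hoxb6 and Hoxb7) and 0 lower, where 2.55% of all genes were higher and 2.56% lower. In 9 of the 11 both knockout libraries lay above both wild-type libraries, against 18.5% of all genes tested, and in 0 did both lie below, against 17.5%. The exceptions were Hoxa2 and Hoxb2. Leaving out a library, a count added after the data were seen, gave 10 without wild-type mouse 1, 9 without wild-type mouse 2, 9 without knockout mouse 1 and 11 without knockout mouse 2, where 39.7%, 28.4%, 32.2% and 35.8% of all genes had the knockout above. With 2 mice a group an exact permutation test cannot give a p under 0.333, so none is given. Bulk tissue cannot tell fewer or more cells of a type from less or more RNA per cell.

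Hoxb7 had the largest difference, 0.79 on the log2(FPKM + 1) scale (SE 0.15, limma adjusted p = 0.789). Its mean FPKM was 2.61 ± 0.201 in the knockout against 1.09 ± 0.0828 in wild type (SD, n = 2 each), a ratio of 2.39. For Hoxa5 the means were 16.9 ± 0.766 and 27.1 ± 3.24, and the difference was 0.64 (SE 0.13, limma adjusted p = 0.886). Both genes lack annotated transcripts over their exons, which matters because the strand setting of the counting is not given. For Hoxb6 the difference was 0.53 (SE 0.15), for Hoxa7 0.49 (SE 0.19) and for Hoxb5 0.45 (SE 0.12). The other 6 genes lay between 0.01 (SE 0.25) for Hoxa2 and 0.32 (SE 0.24) for Hoxb2, and the limma adjusted p of these 9 genes was 0.890 to 0.998. The median difference was 0.32 over the 11 Hox genes and −0.005 over all genes tested.

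**Figure D3:**
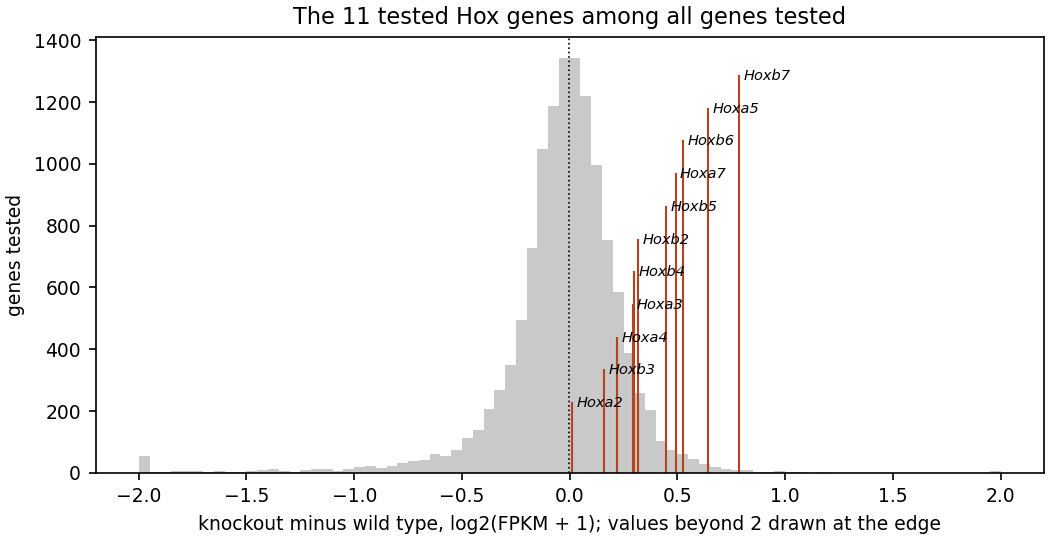
Histogram of the knockout minus wild-type difference in log2(FPKM + 1) for the 12573 genes tested, with vertical lines at the 11 Hox genes (line height has no meaning, and differences beyond the axis are drawn at its edge). The Hox genes lie between 0.01 (Hoxa2) and 0.79 (Hoxb7), all on the right of 0.

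Library by library, a knockout mouse held the highest value of each of the 11 genes, knockout mouse 1 in 6 and knockout mouse 2 in 5. Of all 12573 genes tested, knockout mouse 1 was highest in 3232 and knockout mouse 2 in 2995. The highest value was a median 1.73 times the lowest in the Hox genes and 1.32 times in all genes tested. These sets were not matched for level, since 3 of the 11 Hox genes had a mean FPKM of at least 5, against 8397 of all genes. Summed over all 39 genes, Hox FPKM was 62.2 and 57.5 in wild type, against 87.4 and 80.1 in the knockout, a ratio of means of 1.40. Cluster A summed to 30.8 and 30.9 in wild type and to 48.4 and 39.9 in the knockout, and cluster B to 30.4 and 25.8 and to 38.2 and 39.7. The ratio of means was 1.43 for A and 1.39 for B.

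The ratio of knockout to wild-type means tended to be larger at higher paralogue numbers among the genes in use of both clusters. Genes below an FPKM of 1 were mixed. Hoxa6 had means of 0.628 in wild type against 0.659 in the knockout, whereas Hoxb8 had 0.104 against 0.263. The levels of groups 8 and 9, summed over all clusters including D, had ratios of 0.994 and 0.333. In cluster A the ratio of means was 1.04 for Hoxa2, 1.28 for Hoxa3, 1.21 for Hoxa4, 1.60 for Hoxa5 and 1.63 for Hoxa7. In cluster B it was 1.25 for Hoxb2, 1.17 for Hoxb3, 1.31 for Hoxb4, 1.40 for Hoxb5, 1.63 for Hoxb6 and 2.39 for Hoxb7. As a description over these 11 genes of the same 4 libraries, Spearman's rho between ratio and paralogue number was 0.90. In pairs of single mice rho was 0.63 for knockout mouse 1 over wild-type mouse 1 and 0.27 over wild-type mouse 2, and 0.92 and 0.60 for knockout mouse 2 over the same mice. Within cluster A alone rho was 0 for knockout mouse 1 over wild-type mouse 2. Neighbouring genes overlap in part on the annotation, with antisense transcripts over 52.9% of Hoxb3 exon bases, 27.3% of Hoxb2, 25.4% of Hoxa3, 20.4% of Hoxa7 and 15.998% of Hoxa4, and a same-strand transcript over 15.04% of Hoxa2. These 6 levels, which include both ends of the cluster A series, may therefore hold reads of other transcripts.

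**Figure D4:**
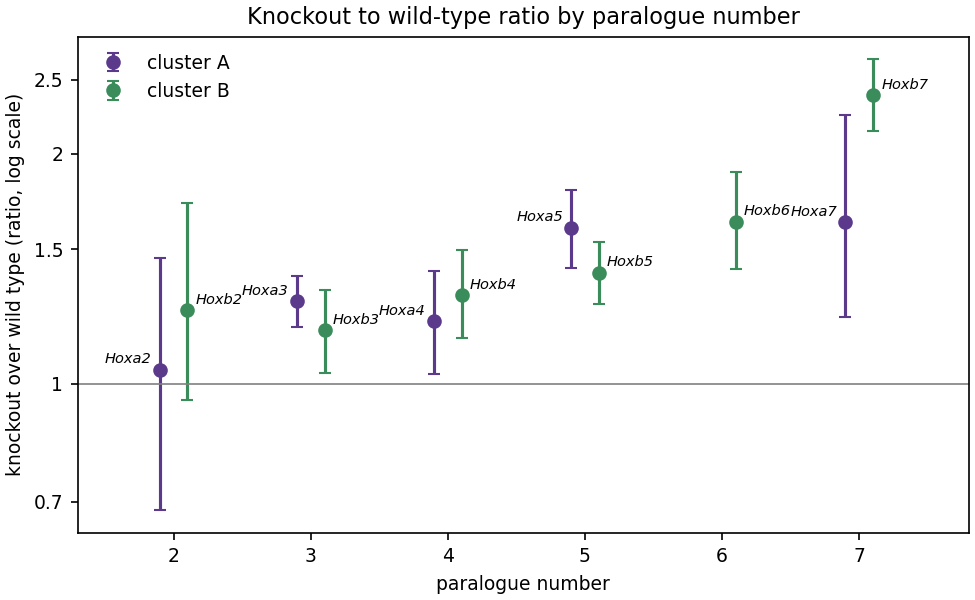
Ratio of mean FPKM, knockout over wild type, on a log axis against paralogue number for the Hox genes in use, with clusters A and B in different colours; the bar spans the lowest to the highest of the 4 ratios of 1 knockout to 1 wild-type mouse. The ratio of means runs from 1.04 at Hoxa2 to 1.63 at Hoxa7 in cluster A, and from 1.17 at Hoxb3 to 2.39 at Hoxb7 in cluster B.

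The genes around the clusters were closer to 0 in their differences. Within 200 kb of the cluster ends the files hold 15 other genes, 9 of which were tested. Their differences lay between −0.14 and 0.25 on the log2(FPKM + 1) scale with a median of 0.05. Of these, 1 had both knockout libraries above and 2 had both below, beside 18.5% and 17.5% of all genes tested. Skap2, the neighbour of cluster A, was at 26.9 and 26.9 in wild type and at 29.6 and 25.0 in the knockout. Evx1, the homeobox gene beyond Hoxa13, was listed at 0 in all libraries, and Evx2 beyond Hoxd13 was at most 0.0135. Of the 8 ParaHox and Evx genes, the closest relatives of the clusters, 0 reached the level for a test and 5 were listed at 0 throughout.

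Among the proteins that act with or on Hox genes, 0 passed limma in any list, and at an unadjusted p under 0.05 there were 1 TALE gene and 1 retinoic acid gene higher, 1 Trithorax gene lower and 0 Polycomb genes, beside 2.55% of all genes higher and 2.56% lower. Counts of genes with both knockout libraries above or both below are to be read against the 18.5% and 17.5% of all genes given above. Of 9 TALE genes 8 were tested, with a median difference of 0.08. Meis1, a partner of Hox proteins on DNA, was at 4.83 and 4.65 in wild type and at 6.68 and 7.04 in the knockout, and Pbx2 was at 16.6 and 17.1 and at 19.95 and 20.8. Both had the knockout libraries above the wild-type ones, as had Pknox2, while Pknox1 had them below. Of 28 Polycomb genes 27 were tested, with 5 above, 3 below and a median of 0.03. Phf1, a Polycomb accessory protein, was at 28.4 and 26.6 in wild type and at 35.1 and 32.6 in the knockout. Of 18 Trithorax genes, all tested, 1 was above and 8 below, with a median of −0.11. The one furthest down was Kdm6a, an X-linked H3K27 demethylase with a Y-linked relative, Uty, at 8.92 and 9.47 in wild type and at 4.82 and 4.62 in the knockout (difference −0.83, SE 0.11, limma adjusted p = 0.581). Kdm6a was thus lower in the libraries in which the Y-linked genes given above were present. Of 19 retinoic acid genes 12 were tested, with 4 above, none below and a median of −0.04. Among them Rarg, a retinoic acid receptor, was at 24.7 and 24.8 in wild type and at 30.9 in both knockout mice, and Aldh1a1, which makes retinoic acid, ranged from 570 to 698.

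Of 18 lung mesenchyme transcription factors 10 were tested, 0 passed limma, and 5 had an unadjusted p under 0.05 with the knockout higher, as had 2.55% of all genes. Their median difference was 0.28, with 6 above and none below, beside 18.5% and 17.5% of all genes tested. Tbx2, a regulator of mesenchymal growth, was at 93.8 and 79.6 in wild type and at 115 and 113 in the knockout. Tcf21, a marker of lung fibroblasts of the lipofibroblast kind, was at 76.3 and 66.9 in wild type and at 92.9 and 92.7 in the knockout. Foxf2 and Meox2 had the smallest p of the list, with differences of 0.56 (SE 0.15) and 0.60 (SE 0.16). Foxf1, which lung mesenchyme and endothelium are known to express, was listed at 0 in all 4 libraries. A value of 0 beside an FPKM of 10 or higher for the same gene in a different mouse occurred for 14 genes, so a 0 may be a missing estimate, for Hox genes too.

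Lung cell types that could carry the Hox signal were followed through their markers, and 0 passed limma in any marker list. Among all genes tested, both knockout libraries lay above both wild-type libraries in 18.5% and below them in 17.5%. Of 14 fibroblast markers, 7 had both knockout libraries above and 1 below, and their summed FPKM was 2615 and 2223 in wild type, against 3453 and 2769 in the knockout. Most of that sum was 1 gene, Inmt, at 1422 and 1374 in wild type and at 2313 and 1851 in the knockout. On the log2(FPKM + 1) scale 8 of the 14 were higher in the knockout, beside 48.8% of all genes tested, and their median difference was 0.11. Of 9 endothelial markers, 6 were above and 1 below, with sums of 1425 and 1583 in wild type, against 1641 and 1844 in the knockout. Of 11 smooth muscle and pericyte markers, 1 was above and 0 below, with sums of 1176 and 474 in wild type, against 762 and 794 in the knockout. Leukocyte markers had 0 above and 2 below of 9, and 1 of the 9 was higher in the knockout mean, with a median difference of −0.40. Of 5 mesothelial markers tested, 0 were above and 0 below, with a median difference of 0.06. Of 10 lung epithelial markers, 2 were above and 2 below, with a median difference of 0.02. Fat and melanocyte markers were high in 1 wild-type library each. Cardiac muscle markers summed to 1422 and 235 in wild type, against 337 and 879 in the knockout. No kidney or gut and liver marker reached the level for a test. At an unadjusted p under 0.05, limma had 2 fibroblast, 1 smooth muscle and 2 endothelial markers higher and 1 leukocyte marker lower, beside 2.55% of all genes higher and 2.56% lower. The 2 fibroblast markers, Tcf21 and Meox2, are also on the list of lung mesenchyme transcription factors and were already counted there. The part of any of these in the Hox differences was not tested. Set against Tcf21, a comparison chosen after the values were seen, Hoxb5 overlapped between genotypes, with ratios of 0.150 and 0.162 in wild type, against 0.156 and 0.179 in the knockout. Hoxa5 relative to Tcf21 did not, at 0.229 and 0.244 in wild type and at 0.316 and 0.267 in the knockout. Hoxb7 relative to Tcf21 was at 0.0136 and 0.0172 and at 0.0266 and 0.0297. No other marker was used as a denominator. Meox2, on the same fibroblast list, differed more between genotypes (0.60 on the log2(FPKM + 1) scale) than Tcf21 (0.37). Whether ratios to a different marker separate the genotypes was not tested.

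**Figure D5:**
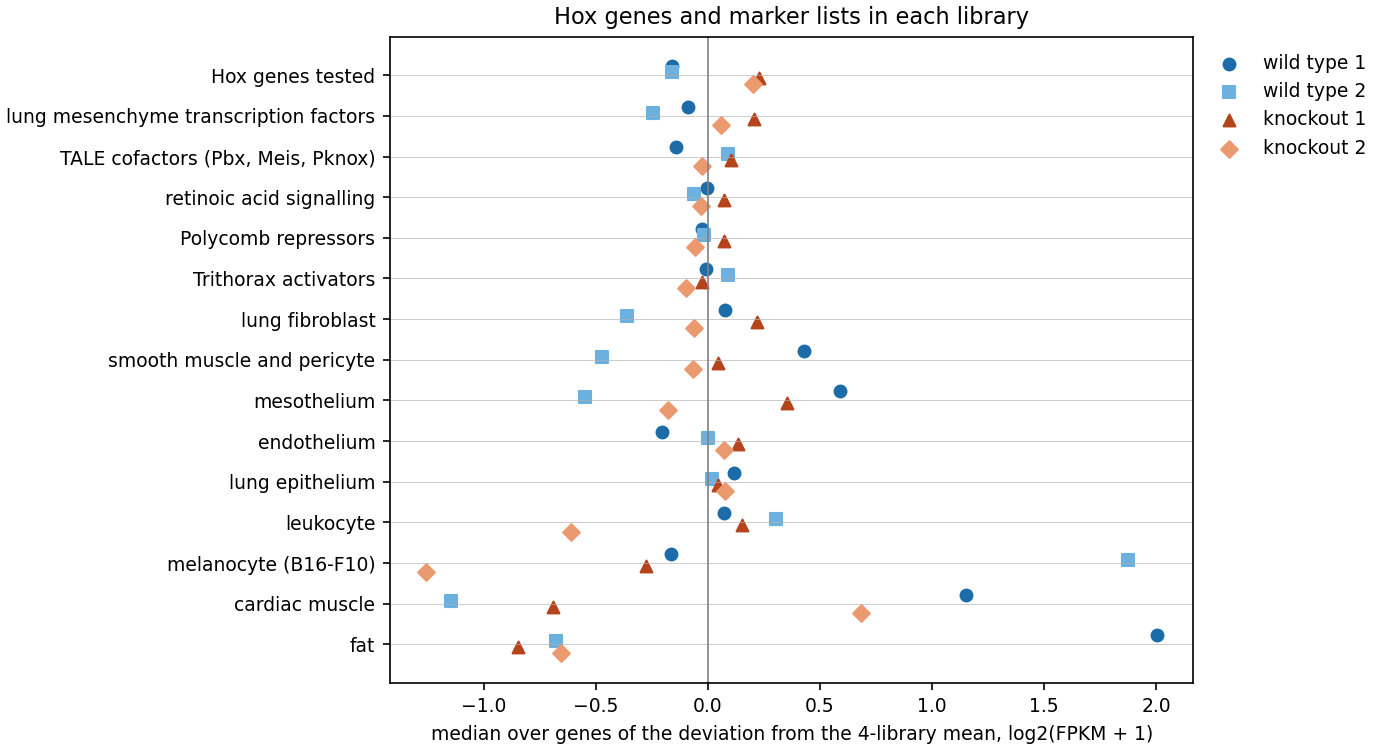
Median over the genes of each list of the deviation of a library from the mean of the 4 libraries, in log2(FPKM + 1), for the Hox genes tested and the pathway and marker lists; each symbol is 1 mouse. The Hox row has both wild-type mice at −0.16 and the knockout mice at 0.23 and 0.20, whereas melanocyte and fat markers are high in 1 wild-type library each, leukocyte markers are low in knockout mouse 2, and cardiac markers are high in wild-type mouse 1 and knockout mouse 2.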

How the data were processed

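The deposited values are FPKM for each gene symbol in each of 4 libraries, 1 per mouse. The submitters' processing notes name TopHat, Cufflinks, HTSeq, DESeq and GRCm38, with no version or role. The strand setting is not given in the sources used here. The 46 extra rows of 39 repeated symbols (no Hox gene) were summed. Genes that reached an FPKM of 1 in 2 or more libraries were compared in limma 3.58.1 (R 4.3.3; eBayes with a mean trend, genotype as the sole term, 2 residual degrees of freedom) on log2(FPKM + 1), a scale that understates changes of low genes. The step was tested on simulated data with changes larger than any Hox difference here. That run cannot show whether differences of the Hox size would be found. Positions and homeoboxes come from GENCODE transcripts, promoters from RefSeq. The Hox rule and all lists were chosen with earlier results of these data known. Genes named from a list have its highest mean FPKM or smallest p; others were chosen after their values were seen. FPKM gives no counting intervals. The limma p-values and SEs rest on the spread between 2 mice a group, weighted with that of genes of like level (2.62 prior degrees of freedom). One Hox gene and some sequences are not reported here. Of 16 named transcripts inside or beside the clusters other than Hox genes none was matched, and they are not analysed here. Of 46 other annotated genes inside the clusters, 2 had values, Gm28308 and Gm28230, at an FPKM of at most 0.366. Alternatives were other pseudocounts, filters, scalings, a constant prior variance, a replicate block and leaving out each library. Figures used Python 3.11.15 and matplotlib 3.10.9.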

Additional observations from a re-analysis of the deposited data

How the results depend on the processing

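No Hox gene passed limma under the alternatives that kept all 4 libraries (smallest adjusted p from 0.482 to 0.9999). The number of Hox genes in use was 12 at an FPKM threshold of 0.5 and 8 at a threshold of 2. It was 11 under median ratio scaling and with any 1 library left out. Of all genes, 3 passed; 0 did with no filter, 0 with the mouse number as a replicate block, and 0 to 1 with a library left out. Same-numbered mice correlated at −0.34 in their deviations, so the numbers were not read as pairs; the crossed block, added after the data were seen, gave 4. Quantile normalization moved the cluster D log2 ratio from −0.97 to −0.59. With each library left out, the log2 ratio of sums was 0.37 to 0.65 for cluster A, 0.36 to 0.59 for B, −0.11 to 1.72 for C and −1.23 to −0.76 for D. The cluster C direction turned without knockout mouse 1, and the value moved most without wild-type mouse 1. Hoxa2 (0.01) turned to −0.0010 with a pseudocount of 0.1, and to −0.07 without wild-type mouse 1, in a range of −0.31 (without knockout mouse 1) to 0.33. The count of Hox genes with the knockout libraries above, recomputed after the data were seen, was 9 under median ratio scaling (20.5% of all genes), 10 under quantile normalization (23.5%) and 9 to 11 with a library left out. Low FPKM and 2 mice a genotype limit what can be shown for clusters C and D.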
